A study of Homo sapiens with 24 samples.

Results

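The genes described are 35 genes of the G2 phase and mitosis, taken from a list of symbols and read on Affymetrix arrays of the B-lymphoblastoid lines GM10855 and GM10861. One probe set stood for each gene, the one with the highest mean over the 24 arrays, and 34 of the 35 genes were measured this way among 18417 genes in all. CENPA, the centromeric histone, was not counted because its probe set is annotated to SLC35F6 as well. The 2 lines come from the HapMap panel of B cells immortalised by Epstein-Barr virus. For either line there were 4 states with 3 arrays in each, making 8 groups: untreated at 0 h, and 36 h of calcitriol (hormonal vitamin D), of estrogen or of both agents. The sources used here give neither the doses nor the estrogen compound nor the vehicle. No untreated sample at 36 h was analysed here, so the effect of an agent and that of 36 h in culture cannot be told apart in any comparison with untreated cells. The study sets agent against no agent, and the 2 lines allow a further comparison of their levels.

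As background, a cell enters mitosis when the kinase CDK1, bound to a cyclin and freed of inhibitory phosphates by CDC25 phosphatases, becomes active. Further kinases and motor proteins then build the spindle, and the spindle checkpoint holds back the anaphase-promoting complex until every chromosome is attached. Most of these genes are transcribed late in the cell cycle and repressed in resting and G1 cells, so their RNA in a bulk culture is widely read as a measure of dividing cells. Lymphoblastoid lines divide continuously. A larger share of cells in G2 or mitosis and more of this RNA in each such cell cannot be told apart in bulk samples.

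Promoters of late cell-cycle genes are known for 2 short elements: the cell cycle genes homology region (CHR, searched as TTTGAA or TTTAAA) and the CCAAT box (CCAAT), which often lies a few helical turns upstream of it. RefSeq promoter sequences on GRCh38.p14, running from 250 bases before to 50 bases after each start, covered 28 of the 34 measured genes; AURKA, BUB3, TTK, TPX2, BIRC5 and UBE2C were not in the table. Either strand was searched, and the 2 elements may overlap. A CHR match was present in 24 of the 28 genes (85.7%), beside 27.9% of all 27305 genes in the table. A CCAAT match was present in 25 of 28 (89.3%), beside 39.7%. Both stood at the same start in 20 genes (71.4%), beside 11.2%. Within the 50 bases just before a start, CHR occurred at 15 of 37 starts of these genes (40.5%) and at 4.39% of all 35116 starts. The 110 bases before the start are printed below, 5′ to 3′ on the strand of the gene. They are shown for 5 genes that hold both elements and for BUB1. BUB1 was the 1 gene not called between the lines in the deposited values with the 4 states averaged. Capitals mark CHR and CCAAT matches on either strand (ATTGG is CCAAT on the other strand).
CCNB1 (chr5:69167040-69167149, + strand): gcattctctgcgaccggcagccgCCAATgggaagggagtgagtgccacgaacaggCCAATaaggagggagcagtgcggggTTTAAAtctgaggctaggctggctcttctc
CCNB2 (chr15:59105036-59105145, + strand): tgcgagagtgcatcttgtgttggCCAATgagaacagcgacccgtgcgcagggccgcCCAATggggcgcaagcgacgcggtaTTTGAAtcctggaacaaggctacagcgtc
PLK1 (chr16:23678779-23678888, + strand): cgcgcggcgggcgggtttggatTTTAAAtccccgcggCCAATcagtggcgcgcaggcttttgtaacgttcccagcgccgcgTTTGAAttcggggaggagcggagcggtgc
KIF20A (chr5:138179002-138179111, + strand): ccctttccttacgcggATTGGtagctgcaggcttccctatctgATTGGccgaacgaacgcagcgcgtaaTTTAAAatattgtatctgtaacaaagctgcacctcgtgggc
MKI67 (chr10:128126424-128126533, - strand): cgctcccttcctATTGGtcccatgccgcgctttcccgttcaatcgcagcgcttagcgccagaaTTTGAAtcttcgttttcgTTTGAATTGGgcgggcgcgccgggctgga
BUB1 (chr2:110678064-110678173, - strand): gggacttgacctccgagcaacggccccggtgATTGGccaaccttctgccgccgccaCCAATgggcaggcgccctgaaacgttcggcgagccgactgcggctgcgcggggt
The CHR match nearest to the start begins 30 bases before it in CCNB1 and 29 bases before it in CCNB2, PLK1 and MKI67. In MKI67 that match overlaps a CCAAT match. AURKB, BUB1, CCNA2 and NEK2 had no CHR match in their windows, which says only that these letters are not there. AURKB, CCNA2 and NEK2 differed between the lines as described next. A link between these elements and the line difference was not tested.

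The lines differed at nearly every gene. With the 4 states averaged, 33 of the 34 genes were higher in GM10861 than in GM10855 and 0 were lower, while 41.8% of all 21214 probe sets tested differed in either direction (23.4% of all 21214 were higher and 18.4% were lower) (limma on all 24 arrays, Benjamini-Hochberg adjusted p under 0.05). The median difference was 0.60 on the log2 scale, or 1.51-fold, and the median over all genes was -0.019. A difference of at least 0.5 was reached by 23 of the 34 genes (67.6%), beside 4.7% of all probe sets. In 30 genes every one of the 12 GM10861 arrays lay above every one of the 12 GM10855 arrays, a separation seen in 7.19% of all probe sets. The lines overlapped for CDC20, KIF4A, UBE2C and BUB1.

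The mean of the 34 genes on each array, with every gene centred on its own mean over the 24 arrays, shows the arrays one by one and was not tested. In GM10855 it ran from -0.38 to -0.21 with a median of -0.31, and in GM10861 from 0.21 to 0.42 with a median of 0.28. No array of one line reached the range of the other. Within GM10855 the 4 states overlapped. In GM10861 the untreated arrays (0.35 to 0.42) lay above those with calcitriol (0.22 to 0.29) and with both agents (0.21 to 0.27). They overlapped those with estrogen (0.28 to 0.36). Gene by gene, the spread between arrays of a group had a median standard deviation of 0.079 over these genes and 0.107 over all probe sets. For the mean of the 34 genes the standard deviation within a group ran from 0.019 to 0.074. The genes of an array thus shifted partly together, and counts of genes are not counts of separate observations. In GM10855 array 1 had the highest mean in each of the 4 states.

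**Figure D1:**
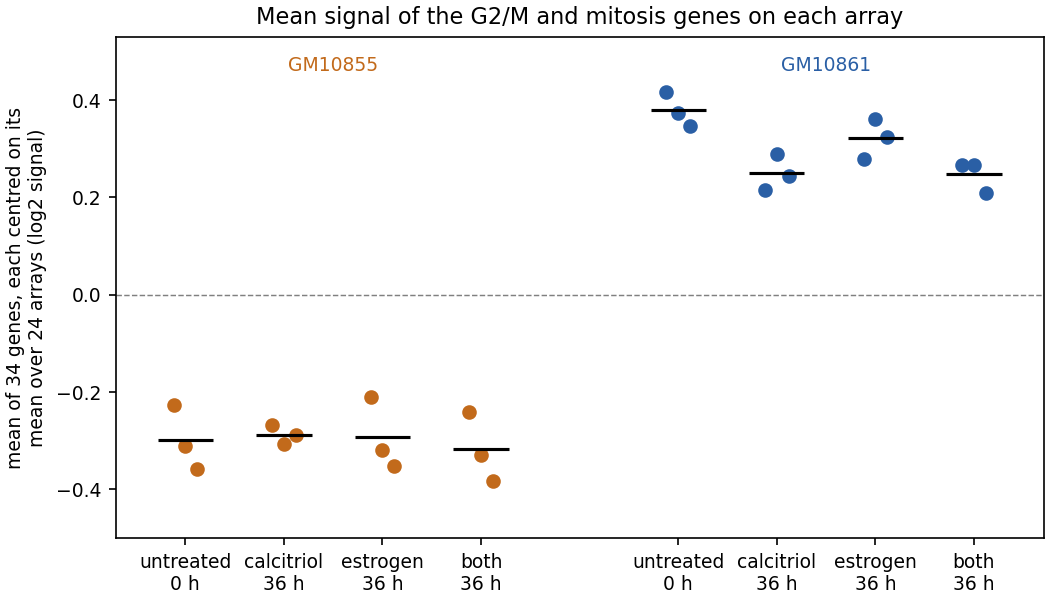
Mean log2 signal of the 34 genes on each of the 24 arrays, each gene centred on its mean over all arrays; points are arrays, bars are group means (n = 3) and the states are on the horizontal axis. GM10855 arrays lie between -0.38 and -0.21 and GM10861 arrays between 0.21 and 0.42, with no overlap.

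Because only 1 line stands on each side, this is a difference between these lines and not between classes of lines. The labels give no batch, so the line and anything else that went with it in culture, extraction or hybridisation cannot be told apart. Nothing says that the arrays of a group came from different cultures, so the p-values measure only the spread between these arrays, possibly a technical one.

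CDK1, its cyclins and the CDC25 phosphatases were all higher in GM10861 (6 of 6, median difference 0.55). CDK1 signal was 6.83 at its lowest, 7.06 at the median and 7.30 at its highest over the 12 GM10855 arrays. In GM10861 the same values were 7.66, 7.79 and 8.01. The GM10861 arrays all lay above the GM10855 arrays, and the difference was 0.74 ± 0.044 (SE; 1.67-fold, adjusted p = 1.15e-12). CCNB1, the main partner of CDK1 at the entry into mitosis, ranged from 9.28 to 9.55 (median 9.40) in GM10855 and from 9.74 to 10.04 (median 9.90) in GM10861. The other cyclins, CCNA2 and CCNB2, differed by 0.59 and 0.60. CDC25B and CDC25C, which remove the inhibitory phosphates from CDK1, differed by 0.50 and 0.44.

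Of the 6 mitotic kinases, 5 were higher in GM10861. TTK, which starts the spindle checkpoint at unattached kinetochores, ranged from 7.15 to 7.57 (median 7.26) in GM10855 and from 7.89 to 8.29 (median 8.05) in GM10861, a difference of 0.77 ± 0.044 (SE, adjusted p = 4.35e-13). The other kinases that differed were NEK2, which separates the centrosomes (0.73), PLK1, which acts from mitotic entry to cytokinesis (0.65), AURKB, the kinase of the chromosomal passenger complex (0.53), and AURKA, the centrosomal Aurora kinase (0.48).

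BUB1 was the exception. This checkpoint kinase, which sits at the kinetochore, ranged from 8.62 to 8.84 (median 8.76) in GM10855 and from 8.56 to 8.91 (median 8.74) in GM10861, so that the ranges of the lines almost coincided. The difference was -0.016 ± 0.036 (SE; 95% interval -0.090 to 0.058, adjusted p = 0.754). The interval leaves out a difference as large as that of any other gene of the list, of which the lowest estimate was 0.34 for UBE2C. Its direction depended on the scaling. BUB1 was lower in GM10861 by limma after cyclic loess normalisation between arrays (-0.11, adjusted p = 0.00987), and all 34 genes lay above 0 when each array was centred on its median.

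The spindle checkpoint and anaphase genes were higher in GM10861 in 6 of 6 cases, with the smallest median difference of the 5 groups (0.46). BUB1B, which with BUB3, MAD2L1 and CDC20 forms the complex that blocks the anaphase-promoting complex, ranged from 7.58 to 7.83 (median 7.69) in GM10855 and from 8.33 to 8.50 (median 8.39) in GM10861. Its difference was 0.72 ± 0.035 (SE). MAD2L1 differed by 0.62, CDC20 by 0.47 and BUB3 by 0.44. PTTG1, the securin that anaphase destroys, differed by 0.41, although related PTTG sequences may share its probes. UBE2C, the ubiquitin-conjugating enzyme of the anaphase-promoting complex, ranged from 7.68 to 8.09 (median 7.89) in GM10855 and from 7.96 to 8.34 (median 8.25) in GM10861. It was the smallest of the called differences at 0.34 ± 0.047 (SE, adjusted p = 2.66e-06), and the arrays of the lines overlapped.

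All 11 kinesins and spindle proteins were higher in GM10861 (median difference 0.62). ASPM, a spindle-pole protein, ranged from 7.10 to 7.73 (median 7.27) in GM10855 and from 8.07 to 8.36 (median 8.22) in GM10861, without overlap. Its difference was 0.88 ± 0.047 (SE; 1.84-fold, adjusted p = 1.8e-13). KIF20A and KIF23, which act at the central spindle in cytokinesis, differed by 0.80 and 0.76, and KIF11, which pushes the spindle poles apart, by 0.72. KIF4A, a chromosome-bound motor, differed by 0.62 with the widest standard error of the list (0.068), and its near copy KIF4B may share probes with it. KIF2C, which takes microtubules apart at the centromere, differed by 0.43. Among the microtubule-binding proteins the difference was 0.69 for DLGAP5, 0.57 for NUSAP1, 0.55 for TPX2 (the activator of AURKA), 0.49 for HMMR and 0.44 for PRC1, which bundles the central spindle.

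The centromere and chromosome proteins had the largest median difference of the 5 groups (0.78, 5 of 5 higher). CENPF, a kinetochore protein of G2 and mitosis, ranged from 7.56 to 8.09 (median 7.67) in GM10855 and from 8.51 to 8.83 (median 8.70) in GM10861. The lowest GM10861 array was well above the highest GM10855 array, and the difference of 0.99 ± 0.046 (SE; 1.98-fold, adjusted p = 1.04e-14) was the largest of the 34. MKI67, the Ki-67 antigen used to count cycling cells, ranged from 8.26 to 8.60 (median 8.43) in GM10855 and from 9.15 to 9.33 (median 9.26) in GM10861. Its difference was 0.85 ± 0.039 (SE; 1.81-fold, adjusted p = 8.24e-15). CENPE, the kinetochore motor, differed by 0.78, TOP2A, the topoisomerase that untangles chromosomes, by 0.72, and BIRC5, or survivin, by 0.58.

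**Figure D2:**
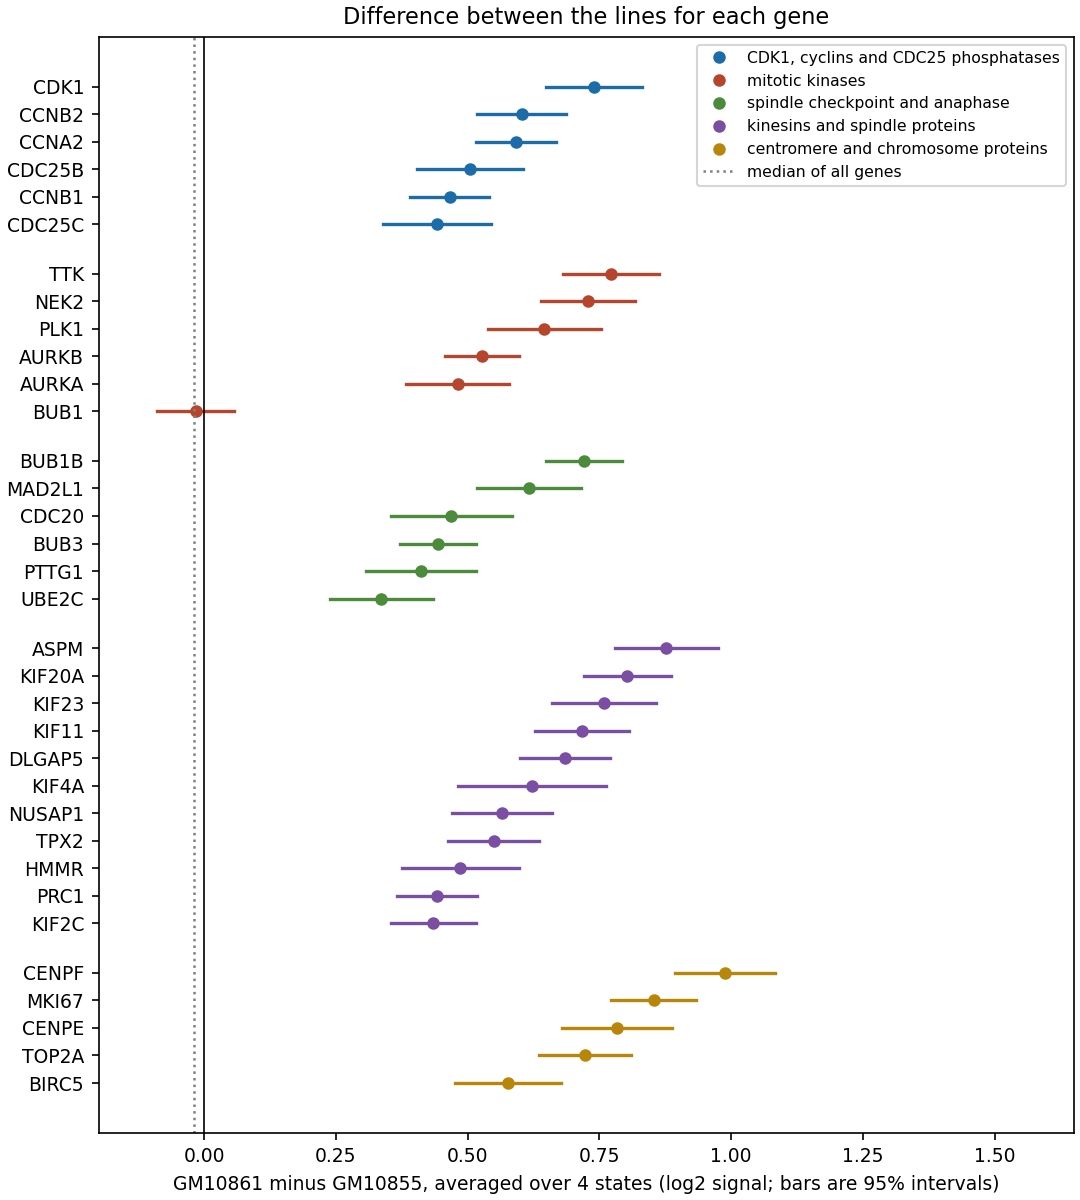
Difference in log2 signal between the lines (GM10861 minus GM10855, averaged over the 4 states) for each of the 34 genes, ordered within 5 groups by role; points are estimates, bars are 95% intervals and the dotted line is the median of all genes. Every interval lies above 0 except that of BUB1, and CENPF has the largest difference at 0.99.

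The line difference was present in each state taken by itself. In untreated cells 33 of 34 genes were higher in GM10861, beside 24.3% of all probe sets that differed (16.2% higher and 8.15% lower), with a median of 0.66. When each array was centred on its median, the share of higher calls among all probe sets called in untreated cells moved from 66.5% to 77.6%. CENPF differed most in untreated cells (1.18 ± 0.092, SE) and BUB1 least (0.060 ± 0.071, SE, adjusted p = 0.587). UBE2C in untreated cells (0.30 ± 0.095, SE, adjusted p = 0.0214) lost its call without GM10855 untreated array 2 (adjusted p = 0.0788) or array 3 (0.0771), or without GM10861 untreated array 2 (0.063). Under calcitriol the median difference was 0.54, under estrogen 0.63 and under both 0.57. In every state the 3 GM10861 arrays lay above the 3 GM10855 arrays for 33 of 34 genes, beside 21.3% of all probe sets in untreated cells, 18.3% under calcitriol, 19.9% under estrogen and 19.1% under both. BUB1 was the gene left out each time, and under calcitriol its 3 GM10861 arrays lay below those of GM10855.

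**Figure D3:**
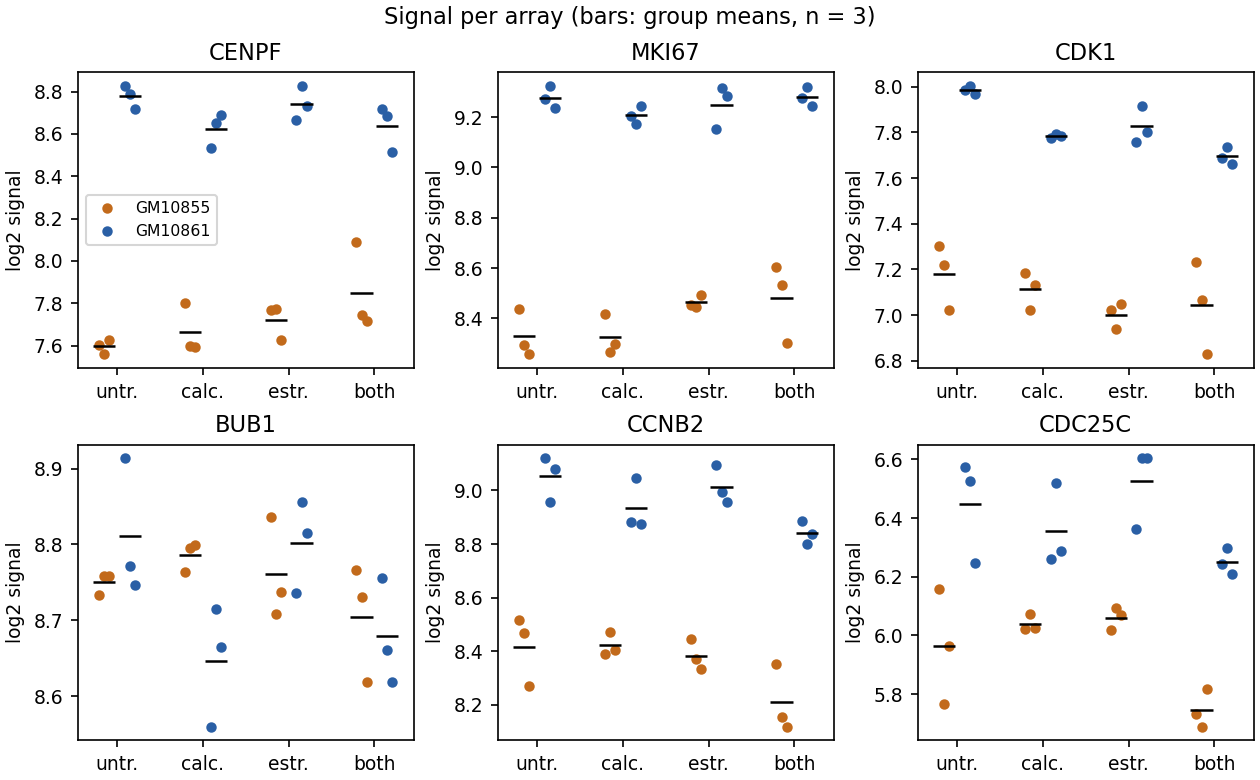
Log2 signal of 6 genes on each array by state (untreated, calcitriol, estrogen, both) and line; points are arrays and bars are group means (n = 3), with a separate vertical scale for each gene that does not start at 0. CENPF, MKI67, CDK1, CCNB2 and CDC25C separate the lines in every state, BUB1 does not, and the mean of CDC25C is lowest under both agents in each line.

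Other genes of the cell cycle were read from lists that hold none of the 34. Among 72 further mitosis genes, 69 were higher in GM10861 and 0 lower, beside 23.4% and 18.4% of all probe sets, with a median of 0.56. They included FOXM1 (0.50 ± 0.044, SE) and MYBL2 (0.58 ± 0.038), transcription factors of late cell-cycle promoters, the kinesin KIF14 (0.92 ± 0.048) and the kinetochore protein NDC80 (0.70 ± 0.049). The 3 that did not pass were LIN52 (0.11), FZR1 (0.10) and CDC16 (-0.021). Among 39 genes of the G1/S transition and DNA replication, 35 were higher and 0 lower, against the same shares, with a median of 0.48. MCM3, a subunit of the replicative helicase, differed by 0.68 ± 0.035 (SE) and RRM2, a subunit of ribonucleotide reductase, by 1.15 ± 0.052 (SE). E2F1 (0.037 ± 0.049, SE, adjusted p = 0.58) and CCNE1 (0.042 ± 0.044, SE, adjusted p = 0.481) did not pass.

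The 15 measured CDK inhibitors, pocket proteins and related genes were split between the lines, with 4 higher and 6 lower in GM10861. Their median was -0.047, and of all probe sets 23.4% were higher and 18.4% lower. CDKN1A, the p53-induced CDK inhibitor p21, ranged from 8.11 to 8.63 (median 8.30) in GM10855 and from 7.38 to 7.82 (median 7.54) in GM10861. It was lower in GM10861 on every array, by -0.76 ± 0.056 (SE, adjusted p = 5.93e-11). RB1, the retinoblastoma protein that restrains E2F factors, was also lower (-0.55 ± 0.037), as was MDM2, the p53 ligase (-0.49 ± 0.045). CDKN2A, which encodes p16, was higher (0.71 ± 0.066), as were CDKN3, a phosphatase of CDK2 (0.97 ± 0.061), and RBL1, which encodes the pocket protein p107 (0.55 ± 0.045).

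Markers of B cells were present in both lines, their 6 measured genes lying at a median percentile of 86.2 among all probe sets tested, with group means of 7.97 to 8.65. Markers of T cells, NK cells, monocytes, erythroid cells and fibroblasts lay at median percentiles of 20.7 to 36.4. Single markers of these lists lay higher. The T cell list reached percentile 88.8 with LCK (mean log2 signal 8.11), which is above the B cell median. The highest percentile was 60.7 for NK cells, 44 for monocytes, 59 for erythroid cells and 58.2 for fibroblasts. Between the lines, 5 of the 6 B cell markers were higher in GM10861, most of all CD22 (1.73). Of the 8 T cell markers 3 were lower, most of all TRAT1 (-2.56), while CD3D differed by 0.0012. Among all probe sets 23.4% were higher and 18.4% lower. The part of these markers in the difference of the mitosis genes was not tested.

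Neither agent changed these genes detectably when set against untreated cells. Calcitriol left 0 of 34 genes past the threshold, beside 0.679% of all probe sets, with a median change of -0.058 and a range of -0.19 to 0.051. The median over all genes was -0.0015, and 29 of the 34 changes were below 0 (85.3%), beside 50.7% of all genes. At an unadjusted p under 0.05 there were 2 lower genes, beside 2.92% of all probe sets. The smallest p belonged to CDK1 (-0.14 ± 0.063, SE, adjusted p = 0.725). In this average the 95% intervals of all 34 genes stayed within 0.391 of 0. Within a single line they reached as far as 0.540 from 0 in GM10861 and 0.406 in GM10855. The average covers lines with different medians. In GM10861 alone the median change with calcitriol was -0.15, and 31 of 34 genes were below 0 (91.2%), beside 55.5% of all genes. There 12 genes were lower at an unadjusted p under 0.05, beside 3.62% of all probe sets. In GM10855 alone the median was 0.016, and 21 genes were above 0 (61.8%), beside 55.7% of all genes. There 1 gene was lower without adjustment, beside 2.85% of all probe sets. By limma 0 of 34 genes passed in either line, beside 0.104% of all probe sets in GM10861 and 0.509% in GM10855, and 0 of 34 differed between the lines in this response. In the comparison averaged over the lines CAMP, a direct target of the vitamin D receptor, rose by 2.46 ± 0.10 (SE).

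Estrogen left 0 of 34 genes past the threshold and 0 of all 21214 probe sets (0%), with a median of -0.020 for the 34 genes. At an unadjusted p under 0.05, 4 genes were lower, beside 1.89% of all probe sets: CDK1 (-0.17), HMMR (-0.20), NUSAP1 (-0.17) and CDC25B (-0.17), with adjusted p from 0.86 to 0.919. All intervals stayed within 0.353 of 0.

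With both agents, 0 of 34 genes passed, beside 1.15% of all probe sets, and the median was -0.084, with 28 genes below 0. At an unadjusted p under 0.05 there were 8 lower genes, beside 4.34% of all probe sets. The 1 higher gene, beside 6.55% of all probe sets, was TPX2 (0.13 ± 0.059, SE). Its mean signal was 8.04 untreated and 8.32 with both agents in GM10855, and 8.785 and 8.757 in GM10861. The nearest to the threshold were CCNB2 (-0.21 ± 0.058, SE, adjusted p = 0.0864), NUSAP1 (-0.23 ± 0.065, SE, adjusted p = 0.105) and CDK1 (-0.21 ± 0.063, SE, adjusted p = 0.112). CCNB2 signal in GM10855 was 8.52, 8.47 and 8.27 untreated and 8.35, 8.16 and 8.12 with both agents. In GM10861 it was 9.12, 8.96 and 9.08 untreated and 8.89, 8.80 and 8.84 with both. The arrays overlapped in GM10855 and not in GM10861. CCNB2 passed in fits that left out GM10855 untreated array 3 (-0.25, adjusted p = 0.0335) or GM10855 both-agent array 1 (-0.25, adjusted p = 0.046), and CDK1 passed in the same 2 fits (-0.25 and -0.26). With both agents in GM10861 alone the median change was -0.13, and 31 of 34 genes were below 0 (91.2%), beside 50% of all genes. In GM10855 alone the median was -0.041, and 20 were below 0 (58.8%), beside 50.8% of all genes. The comparisons of calcitriol, estrogen and both agents with untreated cells share the untreated arrays, so their values do not support one another.

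When the 3 treated groups were averaged and set against untreated cells, 0 of 34 genes passed, beside 0.457% of all probe sets, with a median of -0.055. Without adjustment, 5 genes were lower at a p under 0.05, beside 2.97% of all probe sets. CDK1 (-0.17 ± 0.051, SE, adjusted p = 0.195), NUSAP1 (-0.18 ± 0.053, adjusted p = 0.215) and HMMR (-0.19 ± 0.062, adjusted p = 0.306) had the smallest p. Over the 3 agent comparisons, 76 of 102 gene changes were below 0 and the largest was -0.23 for NUSAP1 with both agents. Because all 3 subtract the same untreated arrays, the 102 changes are not separate observations. For 33 of 34 genes the line difference was larger than the largest change against untreated cells, BUB1 again being the exception.

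**Figure D4:**
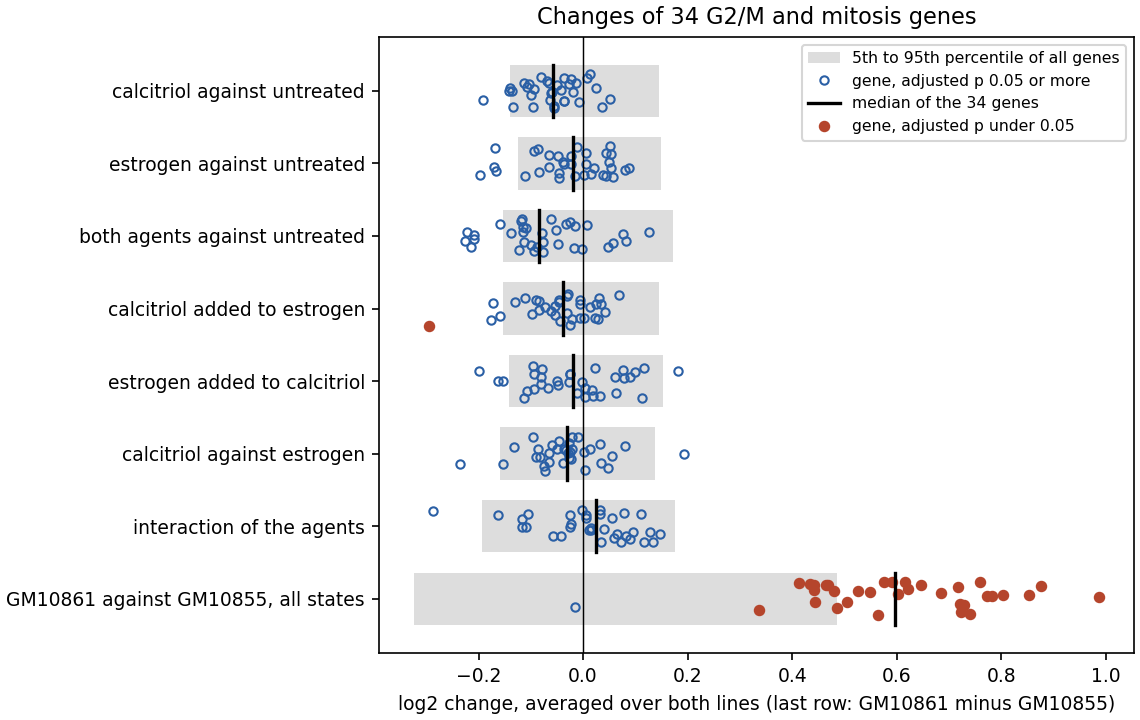
Log2 change of each of the 34 genes in 7 comparisons of agents, averaged over both lines, with the line difference as the last row; open circles did not pass the test, filled circles did, black bars are medians and grey boxes run from the 5th to the 95th percentile of all genes. Only CDC25C, in calcitriol added to estrogen (-0.29), is filled among the agents, whereas 33 of 34 are filled for the lines.

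Comparisons among the treated groups are matched for time. Adding calcitriol to estrogen lowered 1 of 34 genes, CDC25C, beside 0.0754% of all probe sets lowered and 0.754% changed in either direction, and the median change of the 34 was -0.038. CDC25C signal in GM10855 was 6.02, 6.09 and 6.07 with estrogen and 5.73, 5.69 and 5.82 with both agents. In GM10861 it was 6.36, 6.60 and 6.61 with estrogen and 6.24, 6.30 and 6.21 with both. The arrays with both agents lay below those with estrogen in each line. The change was -0.29 ± 0.070 (SE; 95% interval -0.44 to -0.15) with an adjusted p of 0.0498, at the edge of the threshold. Of the 12 fits that left out 1 of the compared arrays, only that without GM10861 estrogen array 1 kept it past the threshold (adjusted p from 0.0312 to 0.158 over the 12). It was also lost when all probe sets were tested (adjusted p = 0.103), when arrays were centred on their medians (0.0842) and when arrays were weighted (0.0667). Against calcitriol alone, CDC25C with both agents was -0.20 ± 0.070 (SE, adjusted p = 0.493), and against untreated cells -0.21 ± 0.070 (adjusted p = 0.206).

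Estrogen added to calcitriol left 0 of 34 genes past the threshold and 0% of all probe sets, with a median of -0.019. Calcitriol set against estrogen left 0 of 34, beside 0.57%, with a median of -0.031. The interaction of the agents, which asks whether the response to both differs from the sum of the single responses, left 0 of 34 and 0% of all probe sets, with CDC25C nearest (-0.29 ± 0.10, SE, adjusted p = 0.992). These comparisons had, at an unadjusted p under 0.05, 1 higher and 3 lower genes, 1 higher and 3 lower, and 0 higher and 1 lower. In either direction that compares with 8.35%, 7.43% and 4.41% of all probe sets.

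The lines were also compared in their responses. None of the 238 line differences in response (34 genes in 7 comparisons) passed, the smallest adjusted p being 0.205 for DLGAP5 with both agents against untreated (-0.40 ± 0.12, SE). Among all probe sets the share whose response differed between the lines was 0.00943% for calcitriol, 0% for estrogen and 0.0141% for both against untreated. It was 0.00471% for the 3 treated groups averaged, 0.00471% for calcitriol added to estrogen, 0% for estrogen added to calcitriol and 0.0236% for calcitriol against estrogen. For the 3 treated groups averaged against untreated, the line difference in response had a median of -0.13, with 9 lower genes and 1 higher at an unadjusted p under 0.05, beside 5.56% lower and 2.82% higher of all probe sets. Taken by itself, GM10861 had a median change of -0.11 in that comparison. There 30 of 34 genes were below 0 (88.2%), beside 50.1% of all genes. GM10855 had a median of -0.0051 with 17 below 0 (50%), beside 47% of all genes. No gene passed in either line by limma, beside 0.0896% of all probe sets in GM10861 and 0.509% in GM10855. At an unadjusted p under 0.05, GM10861 had 11 lower genes, beside 3.26% of all probe sets, and GM10855 had 1 higher and 2 lower, beside 10.1% in either direction. The mean of the 34 genes in GM10861 was 0.38 ± 0.036 (SD, n = 3) untreated, 0.25 ± 0.037 with calcitriol, 0.32 ± 0.041 with estrogen and 0.25 ± 0.033 with both. In GM10855 it was -0.30 ± 0.067, -0.29 ± 0.019, -0.29 ± 0.074 and -0.32 ± 0.072 in the same order. The untreated GM10861 arrays, the lowest of which was at 0.35, lay above all but 1 treated GM10861 array, whose mean was 0.36. In GM10855 the 4 states overlapped.

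The other cell-cycle lists gave few calls under the agents as well. None of the 72 further mitosis genes passed in any agent comparison averaged over the lines, their medians being -0.058 with calcitriol, -0.019 with estrogen and -0.043 with both. With calcitriol in GM10861 alone their median was -0.13, with 65 of 72 below 0 (90.3%), beside 55.5% of all genes. In GM10855 alone it was 0.020, with 25 below 0 (34.7%), beside 44.3%. At an unadjusted p under 0.05, the average over the lines held 5 lower genes with calcitriol and 1 higher and 4 lower with estrogen. With both agents it held 2 higher and 12 lower. The shares of all probe sets were 3.63% higher and 2.92% lower with calcitriol, 3.28% and 1.89% with estrogen, and 6.55% and 4.34% with both. Of the 39 G1/S and replication genes, 1 rose with both agents, CDK6, a cyclin D kinase of G1 (0.24 ± 0.047, SE, adjusted p = 0.00862). It also rose when calcitriol was added to estrogen (0.23 ± 0.047, adjusted p = 0.0141), a comparison that shares the arrays with both agents. The share of all probe sets that passed in either direction was 1.15% with both agents and 0.754% for calcitriol added to estrogen. None of the 15 CDK inhibitors and pocket proteins passed with calcitriol, estrogen or both, and at an unadjusted p under 0.05 they held 0 genes, 1 higher gene, and 3 higher with 2 lower, against the same shares. Of the 6 B cell markers, 2 rose with calcitriol, beside 0.679% of all probe sets that passed in either direction. They were CD79A, which pairs with CD79B in the antigen receptor complex (0.85 ± 0.063, SE, adjusted p = 4.82e-09), and PAX5, a B cell transcription factor (0.26 ± 0.054, SE, adjusted p = 0.0199). Both also rose with both agents (0.81 and 0.36), a comparison that shares the untreated arrays, and none of the 6 passed with estrogen (0 at an unadjusted p under 0.05 as well, by limma). Their part in the values of the mitosis genes was not tested.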

How the data were processed

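Total RNA from 24 samples was hybridised to Affymetrix arrays. The table deposited by the authors holds 1 log2 signal per array and probe set, computed by RMA (Affymetrix Expression Console 1.0.1) according to the submitters' processing notes. RMA brings array distributions together, so changes shared by most genes are lost, and it also compresses folds. Array medians lay between 5.38 and 5.50, and the number of arrays limits the precision. The sources used here name no genome build or annotation.

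Of 33297 probe sets, 19460 had 1 symbol, 1754 several and 12083 none, and 19429 of the first were matched by Entrez ID to genes of GRCh38.p14. The 21214 probe sets with a symbol were tested with limma 3.58.1 (R 4.3.3): 1 mean per group, 16 residual and 6.73 prior degrees of freedom, two-sided, Benjamini-Hochberg adjustment within a comparison, adjusted p under 0.05. The fit was tested on simulated data. Array numbers follow sample order and pair no arrays.

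The genes and lists were chosen with earlier results of these data known. All measured genes of the list may be named; in other lists, examples were chosen after their values were seen, as were the promoters printed. Alternatives were a filter at a mean log2 signal of 5, all probe sets, median centring, cyclic loess, trend with robust estimation, array weights, only the compared arrays, all probe sets of a gene, a minimum change of 0.5, each array left out and, for promoters, only bases before the start.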

Additional observations from a re-analysis of the deposited data

How the results depend on the processing

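The line difference kept 33 of 34 calls in all 24 fits without 1 array, and its median ran from 0.505 to 0.623 over the alternatives. Cyclic loess added BUB1 as lower, and a minimum change of 0.5 left 23 genes. The untreated line call of UBE2C was also lost under cyclic loess (UBE2C 0.18, adjusted p = 0.184), and that of BIRC5 in both line comparisons when its second probe set had to pass too. For both agents against untreated, the count of 0 became 1 with a mean signal of at least 5 (CCNB2), 2 with trend and robust estimation (CCNB2, NUSAP1), and 0 to 2 when an array was left out. For each line by itself it became 1 with a mean signal of at least 5 and 1 with trend and robust estimation, in each case TPX2, higher with both agents in GM10855. For calcitriol added to estrogen the count of 1 became 0 with all probe sets, with median centring, with array weights and with a minimum change of 0.5, and was 0 to 1 when an array was left out. The cause was not tested. No direction of a called gene reversed. With only the bases before the start, CHR stood in 21 of 28 genes (75%) beside 25.5% of all, and CHR with CCAAT in 19 (67.9%) beside 9.29%. No paired analysis was possible because the labels give no replicate numbers. Detection p-values were not analysed here, so dim probe sets have no background limit.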

Other observations

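Probe sets left out of the counts gave the following values. The probe set annotated to SLC35F6 and CENPA together, with a mean log2 signal of 7.44, was higher in GM10861 by 0.37 ± 0.055 (SE, adjusted p = 5.17e-06 by limma), and which of its genes carried the signal cannot be told apart. Its change was -0.049 ± 0.077 with calcitriol and 0.10 ± 0.077 with estrogen, neither past the threshold. A second BIRC5 probe set, with a mean log2 signal of 4.04, differed by 0.028 ± 0.063 between the lines (adjusted p = 0.754), whereas the brighter BIRC5 probe set differed by 0.58. The probe sets of BIRC5 thus disagree on the line difference, and the reason was not tested.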
